A study of Mus musculus with 3 samples.

Results

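Migratory dendritic cells were sought in mouse lung lavage by their chemokine receptor Ccr7 and the chemokine Ccl22, and 86 of 12297 kept cells qualified. The members were chosen by measured counts of these 2 genes: a member had at least 1 UMI (unique molecular identifier, a tag that counts an RNA molecule once) of Ccr7 and at least 3 UMIs of Ccr7 and Ccl22 together. The cells considered had at least 500 UMIs, at least 300 genes and a mitochondrial share of no more than 10%. The samples were 3 libraries of bronchoalveolar lavage cells from wild-type C57BL/6J mice aged 12 weeks kept for 3 hours in filtered air or in ozone at 1 ppm or 1.5 ppm, with lavage of the right lung lobes 22 to 24 hours after exposure ended. Cells of 3 to 4 mice were pooled in each group, so a group is 1 library, mice within it cannot be told apart, and no test between groups or p-value is given. Every interval is a 95% interval for counting error only. Ozone and library preparation cannot be told apart.

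Dendritic cells take up antigen in a tissue, and those that mature switch on CCR7, the receptor for the chemokines CCL19 and CCL21, which leads them through lymphatic vessels to the draining lymph node. There they present peptides to T cells on class I and class II molecules with co-stimulatory proteins such as CD80 and CD86. In this mature state NF-kB genes, chemokines that attract T cells and several proteins that restrain T cells are switched on, while uptake receptors are usually switched off, and in the lung these cells carry inhaled antigen out of the airways.

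Members made up 26 of 3479 kept cells in filtered air (0.747%, exact Clopper-Pearson interval 0.489 to 1.09%), 13 of 2241 at 1 ppm (0.580%, 0.309 to 0.990%) and 47 of 6577 at 1.5 ppm (0.715%, 0.526 to 0.949%). The ratio of the 1 ppm share to the air share was 0.776 (exact conditional interval 0.366 to 1.57). The ratio of the 1.5 ppm share to the air share was 0.956 (0.580 to 1.61). The 3 intervals of the shares overlap, and a difference between libraries smaller than these intervals was not detectable with so few cells. The mitochondrial limit took 34.2%, 30.6% and 9.07% of barcodes from the air, 1 ppm and 1.5 ppm libraries, and 2 air barcodes and 0 ozone barcodes that met the gene rule lay above it. Members held 763 to 47650 UMIs, with medians of 11298, 11508 and 9166 in the air, 1 ppm and 1.5 ppm libraries against 13668, 15754 and 12017 in all other kept cells. The libraries shared 4 to 10 cell barcodes in pairs, and 0 of these were members.

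In the 1.5 ppm library 10 of 47 members (21.3%, 10.7 to 35.7%) also had 10 or more UMIs of Chil3, a secreted chitinase-like protein that is abundant in alveolar macrophages, and 0 of 26 air members and 0 of 13 members at 1 ppm did. The median depth of these 10 cells was 24654 UMIs, against 8815 in the other 37 members of that library. This mark was chosen after the data were seen, and how far doublets or free macrophage RNA entered these cells was not tested. Without the 10 cells the 1.5 ppm share was 0.563% (0.396 to 0.775%) and its ratio to air 0.753 (0.444 to 1.30). Levels at 1.5 ppm are given below with all 47 members and, for some genes and lists, with the 37. A level at 1.5 ppm without a value for the 37 beside it includes the Chil3-marked cells. Such a level can lie well below that of the 37. A list of mature dendritic cell genes used below summed to 21636 CPM in all 47 members, 29830 in the 37 and 34122 in air. A list of NF-kB genes summed to 10643, 14188 and 13786 CPM in the same order. Without a value for the 37, a level lower than in air therefore does not show that the 37 differ from air.

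The label was set beside markers that were given with it and that the rule did not use. Ccl17 had a UMI in 23 of 26 air members, 13 of 13 members at 1 ppm and 36 of 37 members at 1.5 ppm without the Chil3-marked cells, against 1.27%, 1.75% and 3.52% of other kept cells. Cd86 had a UMI in 26 of 26, 13 of 13 and 34 of 37, against 11.6%, 11.8% and 12.9% of other kept cells. After every cell was thinned to 2000 UMIs, Ccl17 was still seen in 84.6% of air members, 84.6% at 1 ppm and 81.0% at 1.5 ppm, against 0.385%, 0.595% and 0.949% of other cells, with 5 shallower members left out at 1.5 ppm. The markers given with the label were carried by nearly all members. Because they came with the label, they are not an independent check of it. Ccl17 was also high in dendritic-like cells without Ccr7, as given below. Markers of other classes were present in part. At least 1 UMI over all members was found for 6 of 13 B cell genes, 2 of 11 natural killer and innate lymphoid genes, 3 of 10 neutrophil genes, 5 of 12 monocyte and interstitial macrophage genes, 5 of 9 plasmacytoid dendritic cell genes, 10 of 15 epithelial genes and 2 of 11 mast cell, basophil and eosinophil genes. The summed epithelial list reached 346 CPM in an air member, 101 at 1 ppm and 3378 at 1.5 ppm, with a median of 0 at both ozone levels and 73.9 in air. Of the genes defining such classes, Cd3d, Trbc1, Cd4, Cd8a, Lef1, Cd79a, Ms4a1, Ncr1, Ly6g, Ly6c2, C1qa and Siglech were at 0 in all 86 cells. Others of the same lists, such as Cd3e, Cd3g, Lck, S100a8, Csf3r, C1qb and Epcam, had a UMI in some member. At 1.5 ppm 1 member had 2 or more T cell receptor complex UMIs. Of the 19 genes of the T cell list 11 had a UMI in some member; Il7r, the interleukin-7 receptor, was at 1009, 717 and 622 CPM in members and 4.06, 0.948 and 5.61 CPM in other cells. Of the 19 genes of the alveolar macrophage list all had one, and their summed level per member ran from 342 to 8501 CPM (UMIs scaled to the same total in every cell or group of cells) in air, from 664 to 4674 at 1 ppm and from 0 to 45617 at 1.5 ppm.

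At the edge of the rule, the 4 members with a Ccr7 and Ccl22 sum of 3 or 4 had a median of 26440 CPM over the other 38 genes of a mature dendritic cell list, and the 82 members with larger sums had 25641. The 1 cell outside with a sum of 2 and Ccr7 present had 35583 CPM. The 11 cells with 1 Ccr7 UMI and no Ccl22 had a median of 684, and the 7 cells with 3 or more Ccl22 UMIs and no Ccr7 had 965. All other kept cells together had 777.

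Promoters of 3 genes the results turn on are shown, taken from RefSeq (build GRCm38.p6, which is not the build the counts were made on). Each is the 250 bases before the transcription start, 5′ to 3′ on the gene's strand. In Nfkb2, which encodes the NF-kB subunit p100, and Nfkbia, which encodes the inhibitor IkB-alpha, capitals mark a match to a kB-like motif on either strand. In H2-Eb1, which encodes a class II beta chain, capitals mark an X-box-like motif and the Y box CTGATTGG. Nfkb2 lies at chr19:46304487-46304736 (plus strand), Nfkbia at chr12:55492648-55492897 (minus strand) and H2-Eb1 at chr17:34305617-34305866 (plus strand).
Nfkb2: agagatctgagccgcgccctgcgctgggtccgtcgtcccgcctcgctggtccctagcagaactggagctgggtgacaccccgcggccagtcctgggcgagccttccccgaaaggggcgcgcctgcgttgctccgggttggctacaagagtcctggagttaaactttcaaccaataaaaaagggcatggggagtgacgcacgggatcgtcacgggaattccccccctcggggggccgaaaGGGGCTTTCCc
Nfkbia: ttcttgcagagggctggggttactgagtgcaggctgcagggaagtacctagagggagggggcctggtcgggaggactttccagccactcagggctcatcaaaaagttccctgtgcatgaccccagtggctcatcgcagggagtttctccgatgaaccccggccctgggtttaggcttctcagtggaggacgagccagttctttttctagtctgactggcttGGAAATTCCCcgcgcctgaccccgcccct
H2-Eb1: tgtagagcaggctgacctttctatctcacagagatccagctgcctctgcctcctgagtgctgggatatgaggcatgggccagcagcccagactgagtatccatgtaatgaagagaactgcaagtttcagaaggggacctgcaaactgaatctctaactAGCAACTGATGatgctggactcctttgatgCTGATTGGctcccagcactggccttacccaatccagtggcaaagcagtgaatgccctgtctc

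The kB-like motif was found in 1.63% of the 32851 promoter windows of 300 bases in the table (250 before the start and 50 after it). Of the 40 genes of the mature dendritic cell list 29 had a window, and 4 of these held the motif: Nfkb2, Eno2, Tmem176a and Tmem176b. Of the 19 genes of the NF-kB list 17 had a window, and 5 held it: Nfkb2, Nfkbia, Rel, Tnfaip3 and Bcl2l1. Of the 12 class II genes 9 had a window. H2-Eb1 and H2-Oa held both the X-box-like motif and the Y box, which 10 of all 32851 windows held, searched on both strands. H2-DMb1 held the X-box-like motif without the Y box, and H2-Aa the Y box without the X-box-like motif. The X-box-like motif was in 0.968% and the Y box in 4.10% of all windows. A gene was counted if any of its windows matched, whereas the shares of all windows count each window. Tmem176a and Tmem176b matched in the same letters on opposite strands, and whether they share a site was not tested. All of these are matches of letters and not measured sites.

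Against all other kept cells, which were mostly alveolar macrophages, members carried a broad mature dendritic cell program. Of 2263 genes with at least 100 CPM in members or in other cells in every library, 230 (10.2%) were at least 4-fold higher in members in all 3 libraries and 24 (1.06%) were at least 4-fold lower. Of the 40 genes of the mature dendritic cell list 35 were considered, and 34 were 4-fold higher in all 3 libraries. The list holds Ccr7 and Ccl22, which the rule used, and the contrast with other cells is the rule's own, so these counts are a description. Counts of the other lists against other cells, given below, stand beside the same shares of 10.2% and 1.06%. Those lists too were chosen with earlier results of these data known. Without the 10 Chil3-marked members the number of lower genes was 317, and that of higher genes 263.

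**Figure D1:**
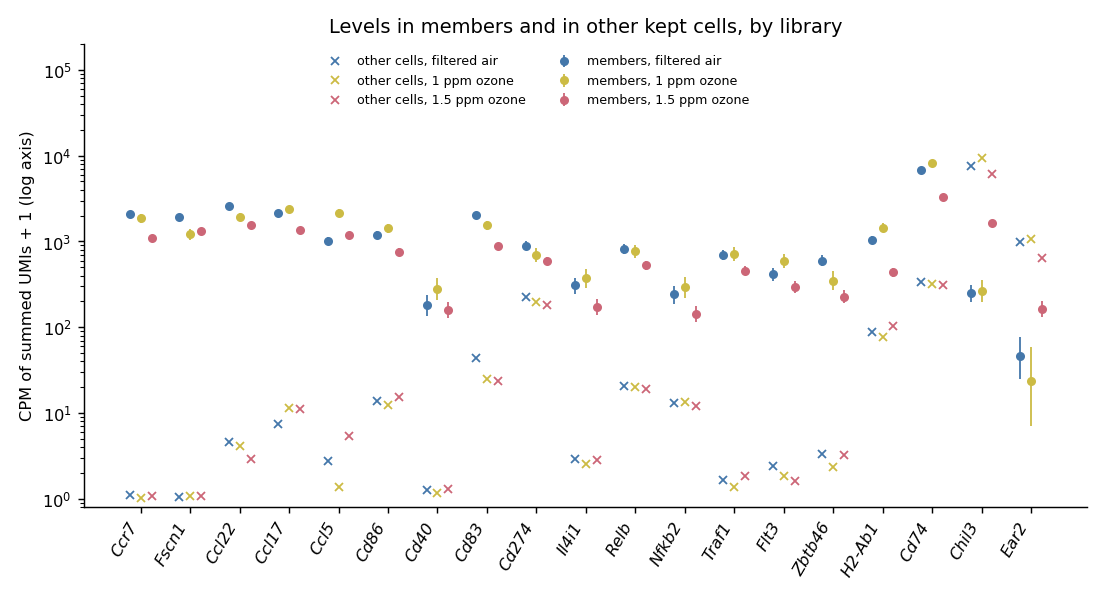
CPM of summed UMIs plus 1 (log axis) for 19 genes in members (circles, with exact Poisson 95% intervals) and in all other kept cells (crosses) of the filtered air, 1 ppm and 1.5 ppm libraries. Ccr7 to Zbtb46 lie higher in members in every library, and Chil3 and Ear2 lie lower, least so at 1.5 ppm, where Chil3 was at 1632 CPM in members.

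For the migration machinery, Ccr7 was at 2110, 1857 and 1090 CPM in the air, 1 ppm and 1.5 ppm members, and this gene chose the cells. Fscn1, the actin-bundling protein fascin that builds the long processes of mature dendritic cells, was at 1921, 1208 and 1336 CPM, against 0.0594, 0.0790 and 0.0751 CPM in other cells. Its per-cell median was 1215 CPM in air, 1730 at 1 ppm and 1737 in the 37 members at 1.5 ppm. Marcks, an actin and membrane binding protein, was at 2819, 1857 and 1454 CPM, and Samsn1, an adaptor protein, was at 2492, 2698 and 1548 CPM. In each library these genes stood far above other cells, where Marcks reached 11.4 CPM and Samsn1 146 CPM. Of 18 genes of the migration list 14 were considered and 10 were 4-fold higher in all 3 libraries. The list summed to 18350, 18018 and 13818 CPM in members, and to 16672 CPM in the 37. Cd9, a tetraspanin, was lower in members, with 293, 469 and 1347 CPM against 3187, 3787 and 3347 CPM in other cells, and at 397 CPM in the 37 members at 1.5 ppm.

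Among chemokines and cytokines, Ccl22, which attracts T cells through CCR4 and was used by the rule, was at 2592, 1925 and 1574 CPM. Ccl17, the other CCR4 ligand, was at 2155, 2360 and 1365 CPM, against 6.51, 10.3 and 10.1 CPM in other cells. Ccl5, a chemokine that attracts T cells, was at 1019, 2162 and 1180 CPM, against 1.80, 0.369 and 4.44 CPM, and at 1896 CPM in the 37 members. Both ligands that the rule did not use were thus seen in members of every library. Il12b, the p40 chain shared by IL-12 and IL-23, was at 372, 79.0 and 312 CPM in members (512 in the 37) and at 0.0198, 0.0263 and 0 CPM in other cells. Cxcl16, a ligand of CXCR6, was at 630, 807 and 441 CPM. Il27, Il23a and Ccl19 were at 0 UMIs in members of all 3 libraries, Tnf was at 0, 0 and 3.63 CPM, and Il6 at 31.0, 0 and 18.1 CPM. Of 21 genes of this list 7 were considered and 5 were 4-fold higher in all 3 libraries. The list summed to 7132, 7925 and 5641 CPM in members, and to 7755 CPM in the 37.

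Co-stimulatory and restraining genes were carried side by side. Cd86 was at 1191, 1428 and 756 CPM, Cd80 at 1225, 694 and 834 CPM, and Cd83, a surface protein of mature dendritic cells, at 2017, 1547 and 879 CPM. Cd40, the receptor for CD40 ligand on T cells, was at 179, 282 and 158 CPM against 0.277, 0.184 and 0.322 CPM in other cells. Of 12 co-stimulation genes 6 were considered and 5 were 4-fold higher in all 3 libraries. Of 17 genes with a restraining role 11 were considered and 9 were. Aldh1a2, which makes retinoic acid, was at 472, 525 and 395 CPM. Il4i1, a secreted amino acid oxidase, was at 306, 373 and 172 CPM. Cd274, which encodes PD-L1, was at 892, 694 and 591 CPM, but other cells also held it, at 223, 194 and 179 CPM, so its log2 difference was 2.00, 1.85 and 1.72. Pdcd1lg2, which encodes PD-L2, was at 540, 327 and 314 CPM against 14.6, 16.8 and 27.4 CPM. Ido1 was at 3.44, 0 and 1.81 CPM.

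NF-kB genes were high in members throughout. Of 19 genes of that list 15 were considered and 14 were 4-fold higher in all 3 libraries, beside 10.2% of all genes considered. The list shares Nfkb2 and Traf1 with the mature dendritic cell list. The exception was Tnfaip2, at 44.8, 28.2 and 158 CPM in members (42.7 in the 37) and 541, 562 and 448 CPM in other cells. Relb, the partner of p52 in the non-canonical pathway, was at 812, 768 and 528 CPM against 19.6, 19.2 and 18.1 CPM. Nfkb2, whose promoter is printed above, was at 241, 294 and 143 CPM against 12.1, 12.6 and 11.2 CPM. Traf1, an adaptor of TNF receptors, was at 695, 717 and 455 CPM against 0.653, 0.369 and 0.858 CPM. The inhibitor gene Nfkbia, also shown above, was at 929, 954 and 738 CPM against 75.6, 76.6 and 101 CPM. Its per-cell median was 706 CPM in air, 958 at 1 ppm and 999 in the 37 members at 1.5 ppm. Summed over the list, members held 13786, 12035 and 10643 CPM, and the 37 held 14188 CPM.

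By the largest difference from other cells kept in every library, the leading genes after Ccr7 and Fscn1 were Ramp3, Cacnb3, Adcy6, Tmem150c, Mir155hg, Stat4, Adora2a and Nr4a3. Mir155hg, the host transcript of miR-155, was at 664, 593 and 716 CPM, and at 1096 CPM in the 37. Stat4, which transmits signals of the IL-12 receptor, was at 1728, 1163 and 1322 CPM. Nr4a3, an orphan nuclear receptor, was at 1745, 1298 and 881 CPM, and Adora2a, an adenosine receptor, was at 200, 164 and 131 CPM. In other cells these 4 genes reached at most 1.40 CPM, in Stat4 at 1.5 ppm. They were followed by Zmynd15, Ccl22, which the rule used, Slc22a23, Tnfrsf9, Traf1, Mmp25, Gnb4, Cd40, Pla1a, Stxbp6, Zfp366, Aldh1a2, Serpinb6b, Dpp10 and Tmtc2. The 10 leading genes on the lower side were Matn2, Slc16a10, Adcy7, Egfem1, Maml3, Zfp710, Cd2, Pld1, Gstm1 and Flt1. Flt1, a VEGF receptor, was at 3.44, 11.3 and 67.1 CPM against 342, 280 and 331 CPM, and at 6.56 CPM in the 37 members at 1.5 ppm.

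Uptake receptors had a list median below that of other cells in each library. With all 47 members at 1.5 ppm included, none passed the 4-fold limit in all 3. At 1.5 ppm the list summed to 1554 CPM in all members, 285 CPM in the 37 and 4093 CPM in other cells. Mrc1, the mannose receptor, was at 34.4, 16.9 and 355 CPM in members against 1373, 1237 and 1023 CPM in other cells, and at 49.2 CPM in the 37 members at 1.5 ppm. Clec7a, which encodes the beta-glucan receptor dectin-1, was at 68.8, 33.9 and 343 CPM against 1030, 1115 and 848 CPM, and at 26.2 CPM in the 37. Of 22 uptake and innate receptor genes 9 were considered, and 0 were 4-fold higher and 0 were 4-fold lower in all 3 libraries. Over all genes considered 10.2% were higher and 1.06% lower. The median log2 difference of the list was -3.51, -4.58 and -1.45 in the air, 1 ppm and 1.5 ppm libraries, beside -0.40, -0.34 and -0.23 over all genes considered.

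Dendritic cell identity genes were present, and few genes of the conventional subset lists reached the level considered. Of 14 genes of the first subset 5 were considered, with 1 gene 4-fold higher and 0 lower in all 3 libraries. Of 15 genes of the second subset 6 were considered, with 2 higher and 0 lower. Over all genes considered 10.2% were higher and 1.06% lower, and on so few genes these counts do not set the lists apart. Flt3, the growth factor receptor of the dendritic lineage, was at 413, 593 and 294 CPM against 1.41, 0.869 and 0.622 CPM in other cells. Zbtb46, a transcription factor of conventional dendritic cells, was at 599, 350 and 227 CPM against 2.34, 1.37 and 2.22 CPM. Cst3, which encodes cystatin C, was at 11142, 13147 and 7572 CPM against 373, 408 and 392 CPM. Of 16 identity genes 12 were considered and 7 were 4-fold higher in all 3 libraries. Their sum was 17497, 18441 and 11858 CPM in members, and 16271 CPM in the 37. Among genes of the first conventional subset, Xcr1 had a UMI in 1 air member and in no other member, and Clec9a had 1 UMI in 1 member of each library, against 9.56%, 9.11% and 11.7% of other cells with a UMI. Cadm1, an adhesion protein of that subset, was at 41.3, 102 and 30.8 CPM (52.5 in the 37), and Batf3, a transcription factor it requires, at 300, 237 and 218 CPM. Among genes of the second subset, Cd209a was at 0, 0 and 9.07 CPM, Clec10a at 0 in all 3, and Irf4, a transcription factor, at 213, 260 and 120 CPM (180 in the 37). Batf3 had a UMI in 19 of 26, 11 of 13 and 39 of 47 members and Irf4 in 17 of 26, 11 of 13 and 26 of 47, while Xcr1, Clec9a, Cd209a and Clec10a were at or near 0.

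Kept cells without Ccr7 but with at least 3 UMIs over Flt3, Zbtb46, Xcr1, Clec9a and Cd209a numbered 42, 23 and 70, but 28, 15 and 46 of these had an alveolar macrophage share like that of other cells. Against all of them, 173 of 2188 genes (7.91%) were 4-fold higher in members in all 3 libraries and 26 (1.19%) lower. A limit of under 10 Chil3 UMIs, set after the data were seen, left 13, 7 and 25 cells, and against these 110 of 1852 genes (5.94%) were higher and 93 (5.02%) lower. Fscn1 was at 0 in these cells of all 3 libraries, and Stat4 was at 16.9, 10.3 and 19.1 CPM in them. Ccl17 did not stand apart in the same way, with 1433, 2719 and 1640 CPM in the Ccr7-negative cells against 2155, 2360 and 1365 CPM in members. The 12 class II genes summed to 13521, 15489 and 6841 CPM in members and 37994, 52111 and 31964 CPM in the Ccr7-negative cells. H2-Ab1, a class II beta chain, was at 1040, 1451 and 437 CPM against 5627, 7200 and 5953 CPM. Wdfy4, needed for cross-presentation, was at 13.8, 11.3 and 118 CPM in members (32.8 in the 37) against 1388, 1174 and 952 CPM. Itgae, which encodes CD103, was at 10.3, 0 and 1.81 CPM against 764, 494 and 593 CPM. The class II transactivator Ciita was at 27.5, 56.4 and 54.4 CPM against 433, 288 and 409 CPM. Ccr7 also marks naive T cells. In the 9, 4 and 45 other kept cells marked by T cell receptor complex genes, the mature dendritic cell list summed to 2319, 2433 and 1954 CPM. In members it summed to 34122, 32424 and 21636 CPM. A T cell that met the rule would be a member and not among these cells, and the list holds Ccr7 and Ccl22. This contrast therefore does not tell members from T cells that carry Ccr7.

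**Figure D2:**
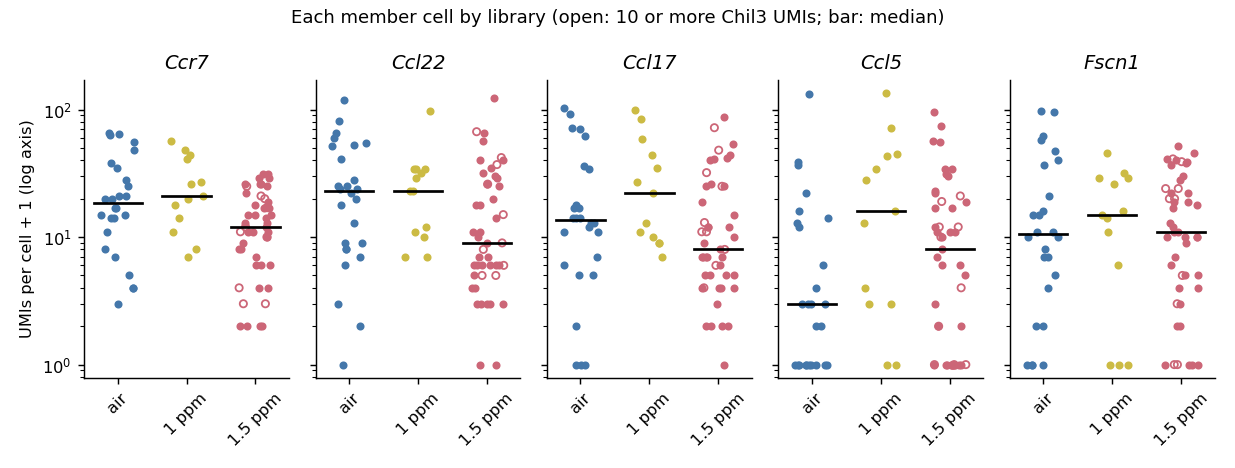
UMIs plus 1 (log axis) of Ccr7, Ccl22, Ccl17, Ccl5 and Fscn1 in each of the 86 members by library, with bars at the median and open circles for the 10 cells with 10 or more Chil3 UMIs. Ccr7 and Ccl22 chose the cells; within the air library Ccl5 runs from 0 to 132 UMIs and Fscn1 from 0 to 96.

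Members varied widely among themselves. Fscn1 ran from 0 to 96 UMIs per cell in air (median 9.5), and 22 of 26 air members, 10 of 13 at 1 ppm and 33 of 37 at 1.5 ppm had it. Ccl5 ran from 0 to 132 UMIs in air (median 2), from 0 to 133 at 1 ppm (median 15) and from 0 to 95 in the 37 members at 1.5 ppm (median 7), and 1 cell gave 44.6% of the air UMIs. Il12b was carried by 12 of 26, 5 of 13 and 18 of the 37, with a top cell of 46, 6 and 61 UMIs. In every library, then, members with many UMIs of these genes stood beside members with none.

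Class II expression also differed widely between members. H2-Ab1 had 0 UMIs in 55 of 86 members (64.0%, 52.9 to 74.0%), 1 to 11 UMIs in 20 and 29 to 132 UMIs in 11 (12.8%, 6.56 to 21.7%), and the gap between 11 and 29 set the limit of 20 after the data were seen. The 11 cells fell as 4 of 26 in air, 3 of 13 at 1 ppm and 4 of 47 at 1.5 ppm, so all 3 libraries held them. Ciita had a UMI in 8 of these 11 cells and in 2 of the 55 without H2-Ab1. Fscn1 had a UMI in 3 of the 11 and in 54 of the 55. Ccl5 had one in 3 of the 11 and in 45 of the 55. The median of Ccl17 was 69 UMIs in the 11 cells and 7 in the 55, while Ccr7 had medians of 14 and 13. The 11 cells were deeper, with a median of 15387 UMIs against 9058, and 1 of the 11 was Chil3-marked.

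**Figure D3:**
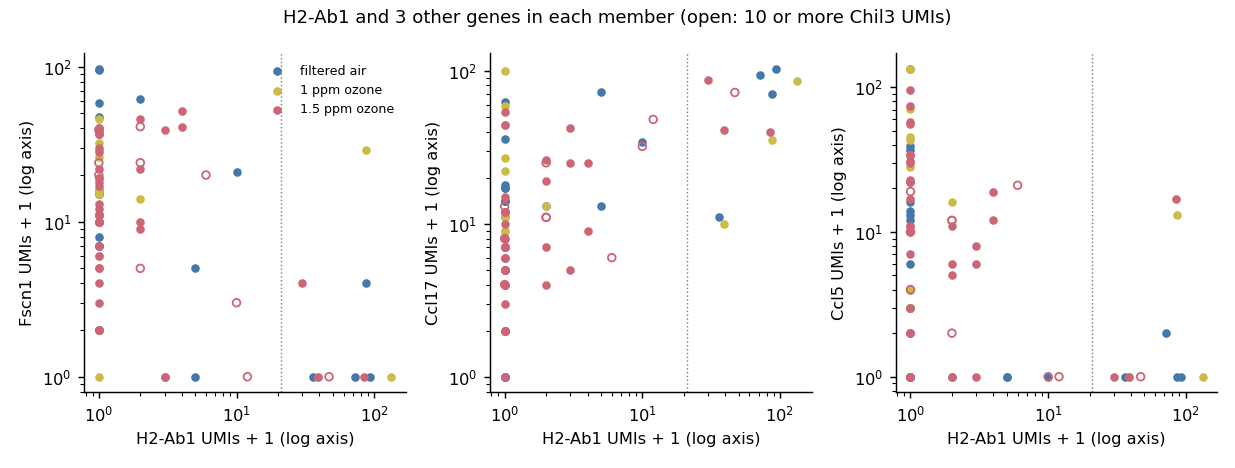
H2-Ab1 UMIs plus 1 against Fscn1, Ccl17 and Ccl5 UMIs plus 1 (log axes) in each of the 86 members, coloured by library, with open circles for the 10 cells with 10 or more Chil3 UMIs and a dotted line at 20 H2-Ab1 UMIs. The 11 cells right of the line come from all 3 libraries, and 8 of them have no Fscn1 UMI.

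Without the Chil3-marked members, 10 cells with 20 or more H2-Ab1 UMIs and 66 with fewer could be compared over 983 genes, of which 74 were 2-fold or more higher in the 10 cells and 94 lower. After H2-Ab1, H2-Eb1 and H2-Aa, the genes furthest up were H2-M2, a class I-like gene (log2 difference 3.44), Mtss1, which binds actin and membranes (3.36), and Fgf13 (3.08). Furthest down were the noncoding transcript AW112010 (-5.47), Il15ra, which presents IL-15 to T cells (-5.18), Serpinb1a, a protease inhibitor (-4.90), and Stat4 (-4.17). Epsti1, Gnb4, Ccl5 (-3.24), Fscn1 (-3.10) and Il15 (-2.87) followed on the same side. Serpinb1a rested on few cells, with a UMI in 4 of 26, 3 of 13 and 4 of 37 members and 56.1% of the 1 ppm UMIs in 1 cell. Fgf13 had a UMI in 9 of 26, 8 of 13 and 8 of 37, with 51.1% of the 1 ppm UMIs in 1 cell. The cells were split by their own counts, so this comparison is a description. Across the 76 members without the Chil3 mark, class II level and Ccl17 level had Spearman's rho 0.47, class II and Fscn1 -0.37, and class II and Ccl5 -0.39; the points share 3 libraries, and class II level and depth had rho 0.33.

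Between libraries, 37 of 973 genes (3.8%) were 2-fold or more higher in members at 1 ppm than in air and 57 (5.86%) lower. At 1.5 ppm against air 106 of 1015 genes (10.4%) were higher and 65 (6.4%) lower. At 1.5 ppm against 1 ppm 83 of 983 (8.44%) were higher and 57 (5.8%) lower. Genes considered had 200 CPM in the higher library and 50 UMIs in both. Each comparison sets 1 pool against another, and the 3 comparisons share libraries. Without the 10 Chil3-marked members the counts at 1.5 ppm against air were 32 higher and 34 lower, and against 1 ppm 30 higher and 31 lower.

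**Figure D4:**
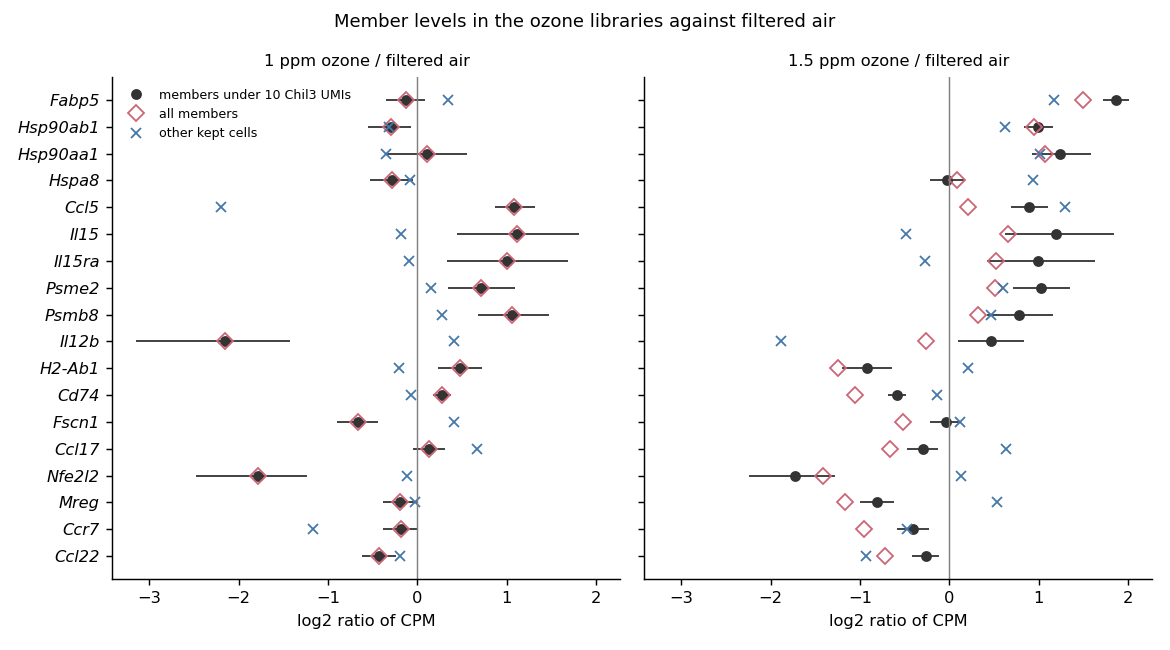
Log2 ratio of CPM in members at 1 ppm (left) and 1.5 ppm (right) against filtered air for 18 genes: all members (diamonds), members under 10 Chil3 UMIs (circles, with exact conditional 95% intervals) and other kept cells (crosses). Fabp5 lies at 1.86 at 1.5 ppm without the Chil3-marked cells, and Nfe2l2 lies below 0 in members of both ozone libraries and near 0 in other cells.

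Macrophage genes moved with the Chil3-marked cells. Of 19 alveolar macrophage genes 9 were considered at 1.5 ppm against air and all 9 were 2-fold or more higher, with a median log2 ratio of 2.95. Without the 10 cells the median was -0.07, and 2 genes were still 2-fold or more higher. The list, which holds Fabp5 (described below), summed to 7001 CPM in the 37 and 2606 in air. Its share of UMIs in the 37 had a median of 0.375% and reached 4.56%, against a median of 1.195% in the 10. The 37 are thus not free of genes of this list. Fth1, the ferritin heavy chain, was at 2034, 1772 and 7669 CPM, and at 2874 CPM in the 37 members. The genes Dip2c, Car4, Kcnip4, Htr2c, Atxn1, Lrmda, Atp6v0d2, Plet1 and Ccl6 led the higher side at 1.5 ppm, with members under 10% of the level of other cells in air or at 1 ppm. The mature dendritic cell list was lower at 1.5 ppm than in air for 30 of 32 genes considered, with a median of -0.66, beside -0.25 over all genes. Without the 10 cells its median was -0.17, beside -0.12 over all genes.

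Fabp5, a carrier of fatty acids, was higher at 1.5 ppm with and without the Chil3-marked cells. It was at 1649 CPM in air, 1502 at 1 ppm and 4636 at 1.5 ppm, and at 6000 CPM in the 37 members there. Per cell it ran from 0 to 70 UMIs in air (median 6), from 1 to 69 at 1 ppm (median 17) and from 0 to 285 in the 37 (median 26), so the libraries overlap, and the top cell gave 15.6% of the UMIs of the 37. The ratio of the 37 to air was 3.64 (3.29 to 4.03), and other kept cells stood at 659, 834 and 1481 CPM, a log2 ratio of 1.17. Leaving out all members with a macrophage-list share like other cells gave a log2 ratio of -0.40, and that list itself holds Fabp5. With Fabp5 taken out of the list, 10 members at 1.5 ppm were left out, as many as by the Chil3 mark. The log2 ratio was then 1.86, as it was without the Chil3-marked cells, so this is not a separate check. Fabp4, a relative, was at 92.9, 16.9 and 172 CPM (279 in the 37).

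Of 15 heat shock genes 7 were considered at 1.5 ppm against air, and 2 were 2-fold or more higher, beside 10.4% of all genes considered. All 7 lay above 0, with a median log2 ratio of 0.78, which was 0.92 in other cells and 0.96 without the Chil3-marked members. Hsp90ab1, a cytosolic chaperone, was at 1501, 1214 and 2914 CPM, and its per-cell CPM median was 1251 in air, 956 at 1 ppm and 2671 in the 37 members. Hsp90aa1, its stress-induced relative, was at 368, 395 and 778 CPM. Hspa8 was at 1535, 1259 and 1641 CPM in members, a log2 ratio of 0.09 at 1.5 ppm, against 0.93 in other cells. At 1 ppm 2 of 6 heat shock genes lay above 0 and the median was -0.26.

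Nfe2l2, the transcription factor of the antioxidant response, was lower in members of both ozone libraries. It was at 540 CPM in air, 152 at 1 ppm and 203 at 1.5 ppm, and 161 in the 37 members, while other cells held 232, 213 and 254 CPM. It had a UMI in 21 of 26, 11 of 13 and 18 of 37 members, and the highest cells had 34, 6 and 6 UMIs, so the air members reached above both ozone groups while many cells overlapped. The ratio to air was 0.282 (0.180 to 0.426) at 1 ppm and 0.297 (0.211 to 0.412) at 1.5 ppm without the Chil3-marked cells. Of 16 genes of the antioxidant and metallothionein list 5 were considered in each comparison with air. At 1 ppm 1 lay above 0 and at 1.5 ppm 4 did, with medians of -0.20 and 0.65, the second 0.46 without the 10 cells. Gclc, which makes glutathione, was at 544, 316 and 665 CPM, and Slc7a11, which imports cystine, was at 317, 164 and 127 CPM. Both comparisons use the same air members.

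Class II genes passed the 2-fold limit at 1.5 ppm against air only with the Chil3-marked cells included. Of 12 genes 5 were considered, and 4 were 2-fold or more lower than in air, beside 6.4% of all genes considered, with a median log2 ratio of -1.25. Without the Chil3-marked cells 0 were 2-fold lower and the median was -0.69, and it was 0.04 in other cells. At 1 ppm the median was 0.27. H2-Ab1 was at 1040, 1451 and 437 CPM, H2-Eb1, whose promoter is shown above, at 2220, 2376 and 914 CPM (1371 in the 37), and Cd74, the invariant chain, at 6754, 8145 and 3267 CPM. Since 1 cell gave 30.5%, 51.4% and 50.3% of the H2-Ab1 UMIs (the last among the 37), these sums follow the few class II-high members. Without both those and the Chil3-marked cells the list median at 1.5 ppm against 1 ppm was 0.52, and H2-Ab1 was 2.07. At 1 ppm only 1 of the remaining members had H2-Ab1, with 1 UMI. The H2-Ab1 value thus lies below the level considered and is not read as a difference.

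Of 17 class I presentation genes 8 were considered at 1 ppm against air, and 1 was 2-fold or more higher, beside 3.8% of all genes considered. All 8 lay above 0, with a median log2 ratio of 0.52 beside -0.09 over all genes and 0.01 for the list in other cells. At 1.5 ppm 4 of 7 lay above 0, with a median of 0.04, and 0.45 without the Chil3-marked cells. Psmb8, an immunoproteasome subunit, was at 334, 700 and 421 CPM, and had a UMI in 20 of 26, 12 of 13 and 31 of 37 members. Psme2, of the proteasome activator PA28, was at 417, 683 and 597 CPM. Its per-cell median was 457 CPM in air, 531 at 1 ppm and 681 in the 37 members at 1.5 ppm. Il15 was at 117, 254 and 187 CPM and Il15ra at 124, 248 and 181 CPM, and Il15 was at 272 CPM in the 37 members. The Il15 ratio to air was 2.17 (1.36 to 3.49) at 1 ppm and 2.33 (1.54 to 3.58) in the 37. Il15 had a UMI in 11 of 26, 11 of 13 and 18 of 37 members. At 1 ppm 1 cell gave 40% of its UMIs, and among the 37 the top cell gave 18.1%. In other cells Il15 was at 63.5, 56.1 and 45.3 CPM.

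Several leading genes of the 1 ppm comparison rested on few cells. Il12b was at 79.0 CPM at 1 ppm against 372 in air, a ratio of 0.213 (0.113 to 0.372), and 1 cell gave 42.6% of the air UMIs. Serpinb1a was at 58.5, 604 and 72.5 CPM (16.4 in the 37), with a UMI in 3 of 13 members at 1 ppm and 56.1% of UMIs in 1 of them. Fgf13 was at 251, 1050 and 138 CPM and Epsti1 at 248, 807 and 207 CPM (358 in the 37), with 51.1% and 64.3% of the 1 ppm UMIs in 1 cell. Coro1a, an actin regulator, was more evenly spread: it was at 89.5, 322 and 169 CPM, with a UMI in 14 of 26, 13 of 13 and 19 of 37 members. Sh3bgrl3, a small thioredoxin-like protein, was at 327, 1157 and 830 CPM, with a UMI in 19 of 26, 13 of 13 and 33 of 37. Abracl was at 62.0, 231 and 423 CPM and Tuba1b, a tubulin, at 62.0, 254 and 145 CPM (82.0 in the 37). Flna and Abhd12 were also higher at 1 ppm, with members of at least 1 library under 10% of the level of other cells, and 1 cell gave 81.4% of the Abhd12 UMIs at 1 ppm. On the lower side, Arap2 was at 262, 50.8 and 149 CPM, Yes1, a kinase, at 227, 62.1 and 43.5 CPM, and Nedd4l, a ubiquitin ligase, at 279, 79.0 and 88.8 CPM (141 in the 37).

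At 1.5 ppm against air, Cd302, Cyb5a, Manf and Gcnt2 were among the leading higher genes. Manf, a protein of the endoplasmic reticulum, was at 48.2, 50.8 and 214 CPM, and at 115 in the 37 members. Other cells held 141, 165 and 387 CPM. Cd302 was at 41.3, 79.0 and 252 CPM, and at 154 in the 37. Ndufa4 was at 44.8, 90.3 and 203 CPM, and at 65.6 in the 37. On the lower side Frmd5 was at 361, 181 and 72.5 CPM, with 68.6% of air UMIs in 1 cell, H1f2, a linker histone, at 310, 107 and 76.2 CPM, Laptm4b at 485, 220 and 158 CPM and Itgb8, an integrin that activates TGF-beta, at 244, 90.3 and 81.6 CPM. At 1.5 ppm against 1 ppm Adam23 was at 386 against 1377 CPM, Btla, an inhibitory receptor, at 34.4 (52.5 in the 37) against 220 CPM and Commd10 at 59.8 against 214 CPM, while Arl6ip1 was at 210 against 62.1 CPM and Rexo2 at 209 against 62.1 CPM, the last at 78.7 in the 37.

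Il1b was at 10.3, 11.3 and 158 CPM in members, with a UMI in 2 of 26, 1 of 13 and 10 of 47 cells, and 1 cell gave 36.8% of the UMIs at 1.5 ppm. In the 37 members it was at 197 CPM, with a UMI in 6 cells and 53.3% of the UMIs in 1. Of the 21 interferon-response genes 0 reached the level considered in any comparison between libraries. The summed level of the G2/M cell cycle list was 27.5, 16.9 and 248 CPM in members, and 26.2 CPM in the 37 members at 1.5 ppm, against 560, 513 and 1219 CPM in other cells.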

How the data were processed

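The deposited values are whole-number UMI counts in gene by barcode matrices. Per the file headers, the authors' software was Cell Ranger 8.0.0, and the submitters' processing notes name GRCm39 (mm39). The handling of intronic reads was not given in the sources used here. Members, gene lists and comparisons were chosen with earlier results of these data known. Counts were summed over members or other kept cells of a library (290514, 177155 and 551539 member UMIs) and scaled to CPM; log2 ratios add 1 UMI to each sum. Levels carry exact Poisson, shares Clopper-Pearson and ratios exact conditional intervals, which ignore cell-to-cell spread. Named genes were ranked by size: 25 higher and 10 lower than other cells by the smallest of the 3 differences, 6 each way between libraries (apart: under 10% of the level of other cells), and list genes with 20 member UMIs. Mitochondrial, ribosomal protein, sex-linked, haemoglobin, receptor and predicted genes were not named. No doublet caller was run. The planned macrophage mark (the 5th percentile of the macrophage-list share) marked 26 members at 1.5 ppm and was replaced by the Chil3 mark after the data were seen. The ratios were tested on simulated Poisson counts without cell-to-cell spread, so that test does not cover genes with most UMIs in 1 cell. Python 3.11.15, numpy 2.4.6, scipy 1.17.1 and pandas 2.3.3 were used.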

Additional observations from a re-analysis of the deposited data

How the results depend on the processing

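With 1 pooled library per group no spread between animals was measured, and the depth of 13 to 47 members limits every level. No paired analysis was possible because each group is 1 library and carries no replicate number. Of the values that answer a comparison, 115 stayed within their interval or 1.5 times the count and 41 moved; the cause of a move was not tested unless the setting itself removes genes or cells. The 1.5 ppm share was 0.319% without members at or above the 5th percentile of macrophage-list share. The 24 genes lower than in other cells became 326 with that exclusion, 317 without Chil3-marked members, 327 without these and the class II-high members, 265 with the mean of each cell's CPM, 64 without the deepest member of each library, 136 after thinning, 10 after centring, and 40 and 8 with the CPM minimum halved and doubled. Against dendritic-like cells the 173 higher genes became 110, and the 26 lower genes 93, with comparison cells under 10 Chil3 UMIs; the lower genes became 55 with at least 5 UMIs over the 5 genes. At 1 ppm against air the higher and lower counts were 7 and 5 after thinning and 15 and 23 with the minimum doubled, and the lower count was 88 with it halved. At 1.5 ppm against air they were 38 and 27 without the 5th-percentile members, 32 and 34 without Chil3-marked members, 22 and 15 after thinning, 281 and 135 with the minimum halved, 36 and 38 with it doubled; the higher count was 64 with the mean of each cell's CPM and 38 without class II-high and Chil3-marked members, and the lower count 25 after centring. At 1.5 ppm against 1 ppm they were 30 and 31 without Chil3-marked members, 14 and 20 after thinning, 237 and 105 with the minimum halved and 25 and 26 with it doubled; the higher count was 44 with the mean of each cell's CPM and 43 without class II-high and Chil3-marked members. Thinning and the CPM minimum change how many genes are considered.

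Of the log2 values of named genes 9 changed sign. Without the 5th-percentile members, whose list holds Fabp5, Fabp5 was -0.40 at 1.5 ppm against air and -0.26 against 1 ppm, and Tuba1b was -0.51 against air. After thinning Btla was 0.12 against air and Hspa5 -0.01 against 1 ppm. Without class II-high and Chil3-marked members H2-Ab1 was 2.07, H2-Aa 1.08, H2-Eb1 1.27 and Frmd5 0.76 at 1.5 ppm against 1 ppm. The class II list median was then 0.52. That exclusion itself removes the cells that hold most class II UMIs. At 1 ppm it left H2-Ab1 in 1 member with 1 UMI, so the H2-Ab1 value rests on too few UMIs to be read.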
